A study of Mus musculus with 4 samples.

Results

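RNAs of 3 kinds that are normally made without a poly(A) tail appear among the 48 genes of the deposited table, with 1 gene of each kind. They are H4c11, a gene for histone H4, 7SK, a small nuclear RNA, and Gm24907, a small nucleolar RNA (snoRNA). These 3 of 48 genes were picked from the table for their class, and the table had been selected by the authors on the same contrast that is described here. The group differences below therefore had to be large and are given as a description, with no test.

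The cells were HT22, an immortalised line from mouse hippocampus labelled as neurons of wild-type genotype. In the mimic group, the reagent and a synthetic miR-712-3p mimic were combined for 15 min, kept on adherent cells for 24 h and followed by a further 24 h in fresh medium. The control group went through the same medium changes with neither reagent nor RNA, so the mimic and the transfection itself cannot be told apart. Each group had 2 libraries, made from RNA captured on oligo(dT) beads, which bind poly(A). The treatment label of mimic replicate 2 reads miR-712-4p, the table calls the control columns NC without explaining it, and the methods speak of independent repeats for all experiments without naming these libraries, so the spread between libraries of a group may be technical. None of the 22 neuronal and glial marker genes looked for is in the table, so the neuronal label could not be checked.

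Most messenger RNAs end in a poly(A) tail. The mRNAs of replication-dependent histones are an exception: they end just after a short hairpin, the histone stem-loop, which stem-loop binding protein holds, and they are made mainly while a cell copies its DNA. 7SK is made by RNA polymerase III and ends in a run of U; it holds the elongation kinase P-TEFb in an inactive complex and so restrains transcription elongation. SnoRNAs are mostly cut out of introns of other genes, trimmed at each end and used as guides that modify ribosomal and other RNAs.

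H4c11 (ENSMUSG00000067455, named Hist1h4j in GENCODE M21) lies in the histone cluster of chromosome 13 at 21735064 to 21735837 on the plus strand (GRCm38). Its annotated transcript has 774 bases, of which 33 to 344 are coding and 374 to 389 form the stem-loop. The stem-loops of 3 of the 13 H4 genes in that annotation are shown with the number of annotated bases after them, since it is that number, and not the stem-loop, in which H4c11 differs from Hist1h4b. Capitals mark the 16 bases of the stem-loop, and the bases after it are as annotated.
H4c11 (chromosome 13, 385 further bases follow the stem-loop): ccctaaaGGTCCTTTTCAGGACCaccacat
Hist1h4b (chromosome 13, 23757013 to 23757409, plus strand, 28 bases follow): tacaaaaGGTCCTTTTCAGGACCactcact
Hist1h4m (chromosome 13, 21811746 to 21812147, plus strand, 3 bases follow): aactaaaGGCCCTTTTCAGGGCCatc

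All 3 stem-loops hold 6 base pairs. A full stem-loop, searched after the stop codon as the core CTTTTCAG with all 6 pairs, was found in 9 of the 13 H4 transcripts. Other forms were not searched, and the annotated transcript of Hist1h4k ends with its 312 coding bases. The remaining genes may therefore still have a stem-loop. Among these 9, that of H4c11 is shared in all 16 bases with Hist1h4b alone. Annotated ends over 100 bases past the stem-loop occur in 4 of these 9 genes, H4c11, Hist1h4d, Hist1h4c and Hist4h4. The last 30 bases of the H4c11 transcript, 745 to 774, carry the poly(A) signal AATAAA at 752 and at 764, which are 23 and 11 bases before the end. They are shown with the signals in capitals.
H4c11, last 30 bases: cggatgcAATAAAattctgAATAAAactgc

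AATAAA, searched on the transcript strand, stands in the last 50 bases of 40.6% of 58787 protein-coding transcripts in that annotation, and 2 copies stand there in 2.13%. Among the 13 H4 genes, 4 have at least 1 copy there: H4c11, Hist1h4a, Hist2h4 and Hist4h4. The annotation thus holds a form of H4c11 with poly(A) signals at its end, beside the stem-loop that marks the form without a tail. The deposited values are per gene and do not say which stretch of it the reads fell on.

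7SK is listed under ENSMUSG00002076161, an identifier that GENCODE M21 does not hold, so no coordinates are given for it. The gene length behind its FPKM, recovered from the deposited values, was 331 bases. Rn7sk (ENSMUSG00000065037), the 7SK gene of that annotation, has the same length. It lies on chromosome 9 at 78175303 to 78175633, minus strand, and is the only 331-base gene among 562 of the class misc_RNA. The listed identifier is a different one and lies outside that annotation, so this count cannot show which gene it is. That the listed gene is Rn7sk rests on the equal length alone and was not tested further. Another 251 misc_RNA genes, of 83 to 371 bases, matched Rn7sk in a BLAST search. The relative with the longest identical start, Gm24447 on chromosome 15, shares the first 241 bases. Bases 242 to 331 of Rn7sk are shown as the stretch beyond that shared start. Other relatives reach into this stretch, such as Gm23037, which aligned to bases 1 to 331 of Rn7sk with 89.2% identity. Capitals mark its T-rich end.
Rn7sk, bases 242 to 331: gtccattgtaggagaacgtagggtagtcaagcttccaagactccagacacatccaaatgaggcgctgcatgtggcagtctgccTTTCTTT

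Gm24907 (ENSMUSG00000080582) is one of 1507 snoRNA genes in GENCODE M21, 679 of which lie inside another gene on the same strand. It has 128 bases on chromosome X, 150807859 to 150807986, minus strand, and lies inside an intron of Maged2 (ENSMUSG00000025268), a gene of the MAGE family. The nearest Maged2 exons are 172 and 734 bases away. Maged2 is not in the table, and the sources used here name neither the counter nor its use of strand, so reads of the snoRNA and of unspliced Maged2 RNA cannot be told apart. Gm24907 is shown with Gm22488, which had the most identical bases among snoRNA genes of similar length. Capitals mark the longest run of identical bases, 22 in length.
Gm24907: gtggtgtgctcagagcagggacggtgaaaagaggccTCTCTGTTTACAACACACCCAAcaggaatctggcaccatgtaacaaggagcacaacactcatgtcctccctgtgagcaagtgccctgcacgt
Gm22488 (chromosome 15, 58146616 to 58146742, plus strand, in an intron of Wdyhv1): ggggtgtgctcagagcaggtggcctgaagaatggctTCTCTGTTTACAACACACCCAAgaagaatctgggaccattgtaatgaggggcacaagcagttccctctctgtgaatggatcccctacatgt

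In a global alignment 102 of the 128 bases of Gm24907, or 79.7%, were identical in Gm22488. For Gm22676, another relative inside Aven on chromosome 2, 93 bases or 72.7% were identical, and the longest shared run was 18 bases. All sequences are from the GENCODE M21 transcripts.

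A 50-base window was slid along each RNA, and the annotated transcripts of all other genes were searched for an exact copy. Introns were not searched. For H4c11, 178 of 725 windows, or 24.6%, were found elsewhere, all within bases 105 to 331, in the coding part that H4 genes share. The coding parts of the other 12 H4 genes were 86.5% to 98.4% identical to that of H4c11. For Rn7sk, 192 of 282 windows, or 68.1%, were found elsewhere, all within bases 1 to 241. For Gm24907 it was 0 of 79 windows. With 100-base windows the shares were 19.0% for H4c11, 61.2% for Rn7sk and 0 of 29 windows for Gm24907. Levels of H4c11, and above all of 7SK if the listed gene is Rn7sk, are therefore uncertain where the counting could split reads between copies. Gm24907 has no exact copy of 50 bases among the annotated transcripts, but it lies inside an intron of Maged2, which this search did not cover.

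**Figure D1:**
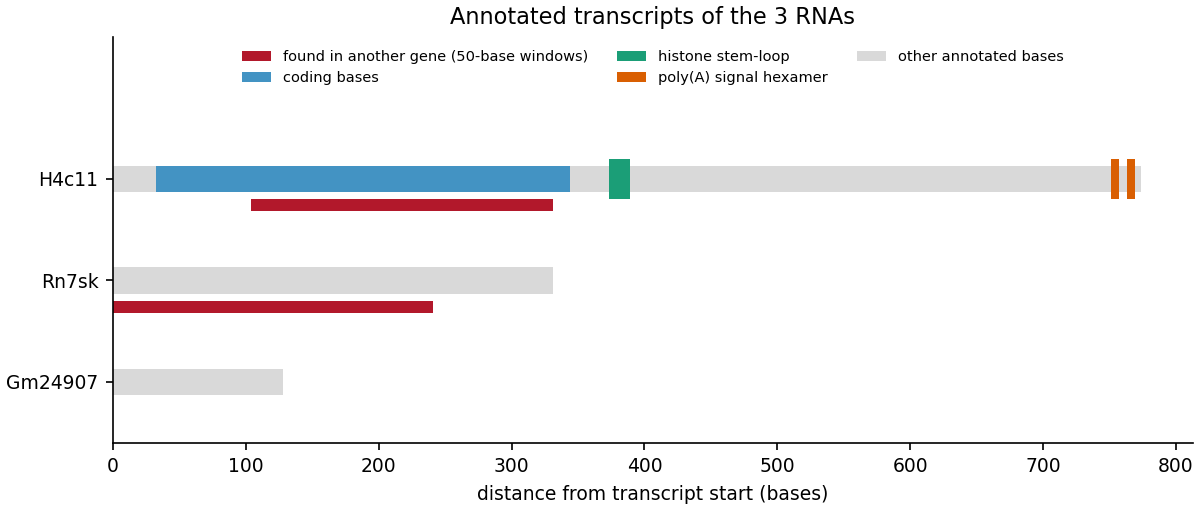
Annotated transcripts of H4c11 (774 bases), Rn7sk (331 bases) and Gm24907 (128 bases), drawn to scale from the transcript start, with the distance in bases on the x axis. In H4c11 the coding bases end before the stem-loop, and the 2 poly(A) signals stand at the far end. The bars under H4c11 and Rn7sk mark the stretches whose 50-base windows also occur in an annotated transcript of another gene, bases 105 to 331 and 1 to 241.

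Since oligo(dT) beads can also hold an RNA by an internal run of A, the longest run was counted. It was 4 bases in H4c11, and 92.5% of protein-coding transcripts have a run at least as long (median 5). It was 3 bases in Rn7sk, against a median of 4 over misc_RNA genes, 90.6% of which reach 3. In Gm24907 it was 4 bases, against a median of 3 over snoRNA genes, 38.5% of which reach 4. None of the 3 RNAs has an unusually long A run for its class, and how they came to be captured was not tested.

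Depth was 31147478 and 39292645 reads in the mimic libraries and 35050806 and 29873090 reads in the control libraries, as worked out from the table. FPKM is the number of reads of a gene scaled by its length and by the total of the library. At these depths 1 read was worth 0.0329 to 0.0432 FPKM for H4c11, 0.0769 to 0.101 FPKM for 7SK and 0.199 to 0.262 FPKM for the short Gm24907. The intervals of FPKM given below are exact 95% Poisson intervals of the reads, carried over to FPKM. Those of the pooled ratios are exact 95% binomial intervals of the mimic share of the pooled reads, scaled by the library totals. Both cover counting error only, and not the spread between libraries.

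H4c11 was lower with the mimic. It had 0.290 and 0.132 FPKM in mimic replicates 1 and 2, against 1.18 and 1.04 FPKM in control replicates 1 and 2, from 7 and 4 reads with the mimic against 32 and 24 reads in control. Both mimic libraries lay below both control libraries, as in 39.6% of the 48 listed genes, with a gap of 0.748 FPKM between the nearest ones. The counting intervals of the mimic libraries were 0.117 to 0.598 and 0.0358 to 0.337 FPKM. Those of the control libraries were 0.807 to 1.67 and 0.665 to 1.54 FPKM. How often such intervals overlap was not counted over the listed genes, which were selected on this contrast, so nothing is read from it. H4c11 averaged 0.211 ± 0.112 FPKM with the mimic and 1.11 ± 0.10 FPKM in control (SD, n = 2 each), a ratio of 0.190, or 5.26 times more in control. Pooled over each group, the ratio of reads over library totals was 0.181, with a 95% interval of 0.0855 to 0.349. The 2 mimic libraries differed from each other by 2.21 times and the control libraries by 1.14 times, and without mimic replicate 1 the ratio was 0.119. Fewer cells that make an RNA and less of it per cell cannot be told apart in these bulk libraries.

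7SK was higher with the mimic. It had 6.11 and 5.46 FPKM in mimic replicates 1 and 2, against 2.76 and 2.22 FPKM in control replicates 1 and 2, from 63 and 71 reads with the mimic against 32 and 22 reads in control. Each mimic library lay above each control library, as in 54.2% of the 48 listed genes, by at least 2.70 FPKM. The counting intervals were 4.70 to 7.82 and 4.26 to 6.89 FPKM with the mimic and 1.89 to 3.89 and 1.39 to 3.37 FPKM in control. As for H4c11, overlap of these intervals was not counted over the listed genes and is not read as a result. The mean was 5.78 ± 0.461 FPKM with the mimic and 2.49 ± 0.377 FPKM in control (SD, n = 2 each), a ratio of 2.32. The pooled ratio of reads over library totals was 2.29, with a 95% interval of 1.66 to 3.20. Its libraries differed by 1.12 times within the mimic group and by 1.24 times within the control group.

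Gm24907 had reads in each mimic library and in neither control library. It had 2.51 and 1.19 FPKM in mimic replicates 1 and 2, from 10 and 6 reads, against 0 FPKM and 0 reads in each control library. The floor used for a count of 0, 3 reads, is 0.669 FPKM in control replicate 1 and 0.785 FPKM in control replicate 2, and lies below the upper end of the exact interval of 0 reads, which is two-sided. Both mimic values lay above these floors, but the counting interval of mimic replicate 2, 0.438 to 2.60 FPKM, overlapped those of the control libraries, 0 to 0.822 and 0 to 0.965 FPKM. The interval of mimic replicate 1 was 1.203 to 4.61 FPKM. The mean was 1.85 ± 0.930 FPKM with the mimic (SD, n = 2). This is 5.13 times the floor of 3 reads over both control libraries together, or 0.361 FPKM. Counting error in the mimic reads included, the exact 95% lower limit of the ratio was 3.55. Leaving out mimic replicate 1 gave 3.305 times the floor, and leaving out mimic replicate 2 gave 6.95 times. The value was 2.36 or 2.77 with control replicate 1 or 2 left out, where the floor of 3 reads falls on 1 library instead of 2.

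**Figure D2:**
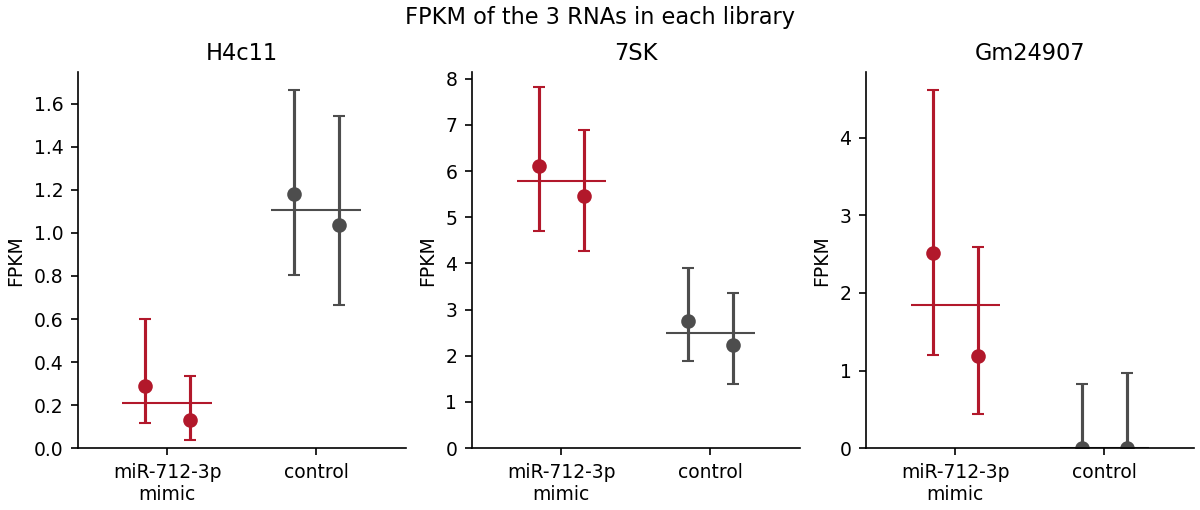
FPKM of H4c11, 7SK and Gm24907 in each library, mimic on the left and control on the right of each panel, with points for libraries, bars for exact 95% Poisson intervals of the reads and horizontal lines for group means. The H4c11 mean is 0.211 FPKM with the mimic and 1.11 FPKM in control, the 7SK mean is 5.78 and 2.49 FPKM, and Gm24907 has 1.85 FPKM with the mimic and no read in control. The y axes differ between panels.

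The whole table sets the background for these separations. Both mimic libraries lay above both control libraries in 26 of 48 genes, or 54.2%, and below both in 19 of 48, or 39.6%. Nearly every listed gene is thus separated because the table was selected for it, and nothing about 7SK, Gm24907 or H4c11 can be read from their own separation. Within this background 7SK and Gm24907 belong to the 29 genes with a higher mean with the mimic and H4c11 to the 19 with a lower one. Gm24907 is among 5 listed genes with no read in control, while 6 others have no read with the mimic.

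**Figure D3:**
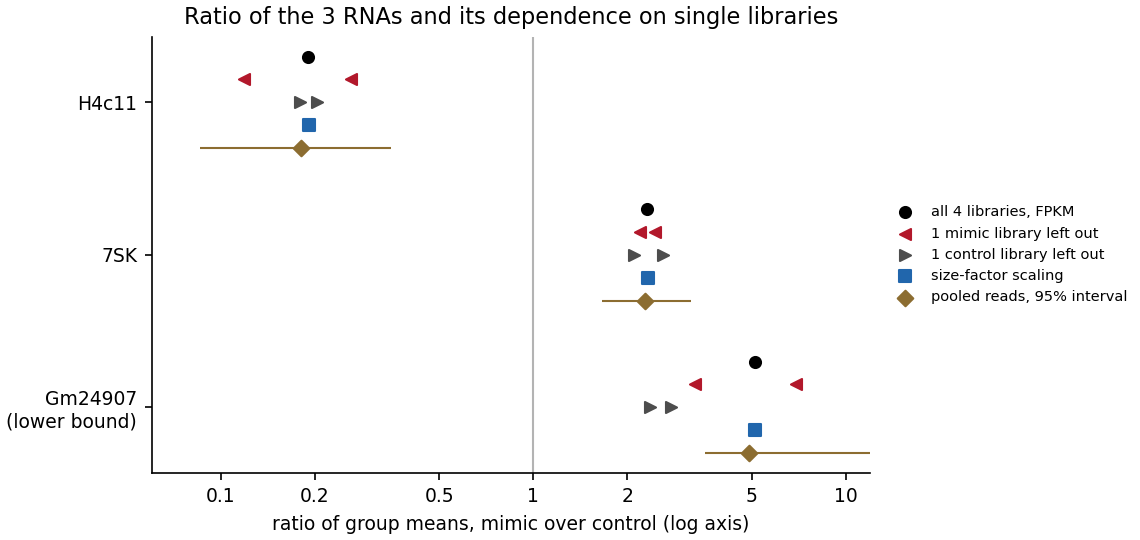
Ratio of group means, mimic over control, on a log axis, for all 4 libraries, with 1 library left out, with size-factor scaling and for pooled reads with their 95% interval. The values of H4c11 lie between 0.119 and 0.262 and those of 7SK between 2.10 and 2.60. For Gm24907 every point, the pooled one included, is a ratio to a floor of 3 control reads, from 2.36 to 6.95. The axis label calls these lower bounds, which leaves out counting error in the mimic reads. The line of the pooled point starts at the exact lower limit of 3.55 and has no upper end.

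Setting the RNAs against each other within a library removes the library total from the comparison. H4c11 and 7SK were listed for differences in opposite directions on this contrast, so their ratio had to differ between the groups. For every read of H4c11 there were 9 and 17.8 reads of 7SK in mimic replicates 1 and 2, against 1 and 0.917 in control replicates 1 and 2. Per length, the level of 7SK was 21.05 and 41.5 times that of H4c11 with the mimic, against 2.34 and 2.14 times in control. The order of these 2 RNAs per length was the same in all 4 libraries, with 7SK above H4c11, and only the distance between them differed. Gm24907 had 15.9 and 8.45 reads per 100 reads of 7SK with the mimic, against 0 in each control library.

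The reads of the 3 RNAs together summed to 80 and 81 with the mimic and 64 and 46 in control. H4c11 took 8.75% and 4.94% of them with the mimic, against 50% and 52.2% in control. 7SK took 78.75% and 87.7% with the mimic, against 50% and 47.8% in control, and Gm24907 took the remaining 12.5% and 7.41% with the mimic. These shares are tied to each other, since they add up to the whole, so the direction of each RNA is read from its own FPKM above. By FPKM the histone mRNA was lower with the mimic, while the small nuclear and the small nucleolar RNA were higher.

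**Figure D4:**
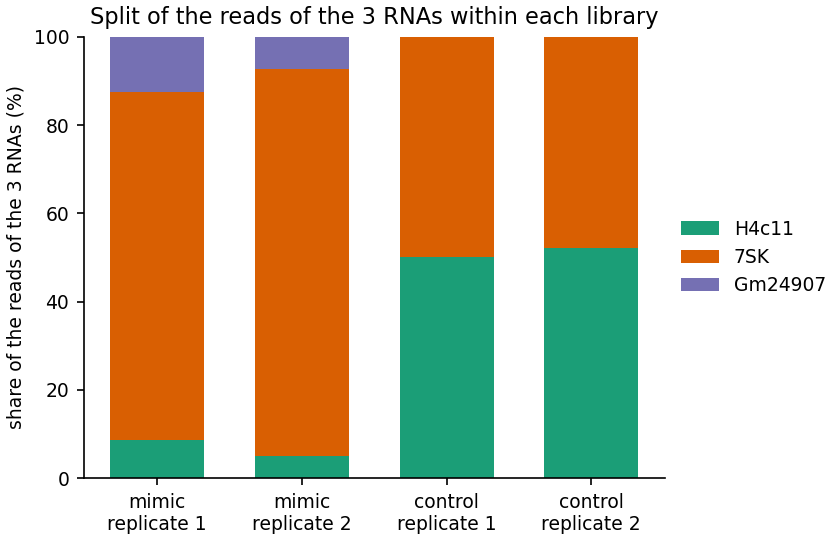
Share of the reads of H4c11, 7SK and Gm24907 (y axis, percent of their sum) in each of the 4 libraries. H4c11 takes 8.75% and 4.94% in the mimic libraries and 50% and 52.2% in the control libraries, while Gm24907 has 12.5% and 7.41% in the mimic libraries and no read in control.

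By mean FPKM over the 4 libraries 7SK ranked 2 among the 48 listed genes, behind Sumo2, Gm24907 ranked 8 and H4c11 ranked 12, against a median of 0.254 FPKM over the table. By reads they ranked lower, at 11, 38 and 23 in the same gene order, since they are short. Gm24907 and 7SK are the shortest and the next shortest of the listed genes, against a median length of 2087.5 bases, and H4c11 ranks 10 from the shortest. Of the 5 listed genes under 500 bases, 4 had a higher mean with the mimic and 1 a lower mean. Gm24907 and 7SK are themselves among these 4, and 29 of all 48 listed genes had a higher mean with the mimic. On a scale of log2 (mean FPKM + 0.1), the difference of mimic minus control was 4.29 for Gm24907, 1.18 for 7SK and -1.96 for H4c11. The Gm24907 value depends on the pseudocount, since its control level is 0, and is no bound.

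**Figure D5:**
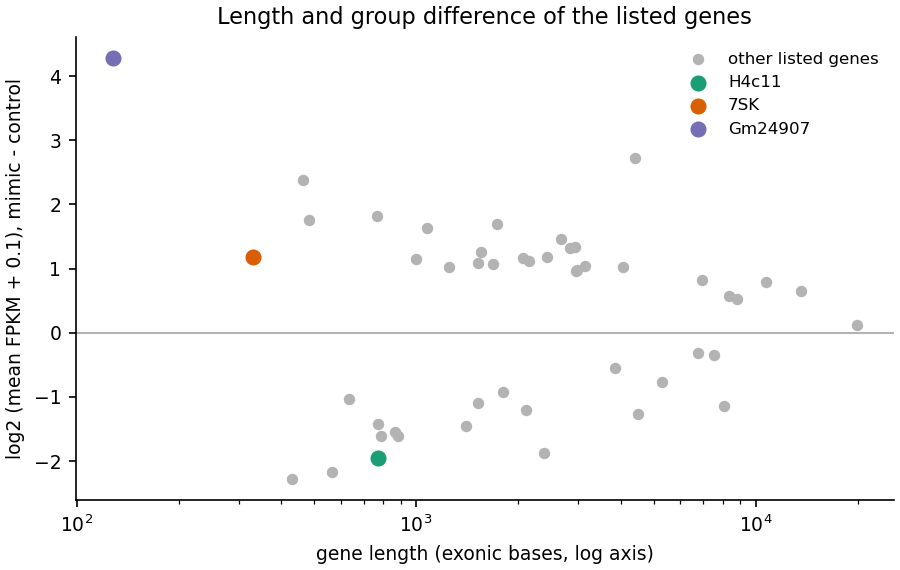
Difference of log2 (mean FPKM + 0.1), mimic minus control (y axis), against exonic length in bases (x axis, log scale) for the 48 listed genes. Gm24907 stands at the short end with the value 4.29, 7SK at 331 bases with 1.18, and H4c11 at 774 bases with -1.96. The empty band around 0 among shorter genes belongs to a table selected on this contrast. The added 0.1 FPKM pulls genes of low FPKM towards 0, such as the long gene Zan, at 0.121 with no read in control. A link between length and difference can therefore not be read from this figure.

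The listed genes with the most similar profiles were found by Pearson's r of log2 (FPKM + 0.1) over the 4 libraries, which is a description of 4 points that share their totals. For H4c11 they were 3 processed pseudogenes, Gm7278 (r = 0.992), Ppp1r2-ps4 (r = 0.961) and Gm8705 (r = 0.954). For 7SK they were the beta globin gene Hbb-bs (r = 0.997), Hook1, a microtubule adaptor protein (r = 0.996), and Serpina3n, a secreted protease inhibitor (r = 0.992). Hbb-bs had 3.89 and 3.68 FPKM with the mimic, against 1.23 and 0.785 FPKM in control. For Gm24907 they were Zan, a sperm protein (r = 1.00), Gm44116, a transcript of no assigned class (r = 0.999), and the mitochondrial carrier Ucp3 (r = 0.998). Among the 3 RNAs themselves r was 0.98 between 7SK and Gm24907 and -0.91 between H4c11 and each of the others. Since 45 of 48 genes separate the groups, values near 1 or -1 are common in this table and show little beyond the group split.

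The machinery around the 3 RNAs was looked for by name. Of the replication-dependent histone genes, 70 in the annotation, and 13 factors of histone 3′ end formation such as Slbp, which encodes the stem-loop binding protein, H4c11 was the only one listed. Of 16 names of the 7SK particle and of P-TEFb, such as Larp7, which binds the 3′ end of 7SK, Hexim1, which inhibits the kinase, and Cdk9, the kinase itself, 7SK alone was listed. Of 150 named snoRNA and small Cajal body RNA genes and 10 of their proteins, such as Fbl and Dkc1, none was listed, and Gm24907 entered by its annotated class. None was listed of 8 other named RNAs without a usual poly(A) tail, among them Rn7sl1, Rmrp and Malat1. Nor was any of the 22 annotated genes whose names begin with Rnu. The same count of 0 held for 15 factors of poly(A) tail addition and the nuclear exosome and for 19 genes of S phase and proliferation, such as Mki67 and Pcna. The table holds selected genes alone, so these counts do not give the levels of the absent genes, and whether other histone mRNAs or snoRNAs differed between the groups was not analysed here.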

How the data were processed

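RNA from 2 mimic and 2 control HT22 libraries was captured on oligo(dT) beads, sequenced and quality filtered by the authors, who then used HISAT2 for alignment and DESeq2 for the group comparison, both also named in the submitters' processing notes. The read counter, its strand setting, genome build, annotation and versions: not given in the sources used here. Samples were grouped by their titles. The deposited table lists 48 genes with 1 FPKM value per library, computed by the authors and recognised as FPKM from the values. The authors also deposited a normalised count signal, averaged per group. The remaining columns hold the authors' fold changes and p-values and were not used, and 0 columns of other samples were present.

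Reads were recovered as FPKM times GENCODE M21 (GRCm38) exon length times a library total that was searched for. In 44 of the 46 genes with a length there, products were whole within 0.01 in all 4 libraries. The other 4 of the 48 genes, 7SK, Asb18, Peg3 and Gm52965, were solved through the deposited group means. The group means equalled the reads divided by size factors of 0.926 and 1.17 (mimic) and 1.05 and 0.889 (control), within 0.0054. The reads may be read pairs. On simulated data 100% of 40 genes, all 4 totals and 8 of 8 hidden lengths were recovered.

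Ratios divide group means of FPKM. A group at 0 was replaced by a floor of 3 reads. Intervals are exact at 95%. No count test was run because the table was already selected. Alternatives were size factors, pooled reads, geometric means, pseudocounts of 1 and 0.1 FPKM, a minimum mean of 10 reads, each library left out, and a replicate block. Other genes were named if they were on a gene list, hosted a member or ranked among the 3 most correlated. The members and lists were chosen with earlier results of these data known. Python 3.11.15, NumPy 2.4.6, pandas 2.3.3, SciPy 1.17.1, Biopython 1.88 and BLAST 2.17.0 were used.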

Additional observations from a re-analysis of the deposited data

How the results depend on the processing

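No ratio changed direction under any of the alternatives tried. Apart from the size factors this was fixed in advance, since both mimic libraries lay on 1 side of both control libraries. For Gm24907 both mimic values also lay above the control floors. The alternatives therefore show how far the size of a ratio moves, and give no support for its direction. Adding 1 FPKM to each group mean moved the ratio of mimic over control to 0.574 for H4c11, 1.94 for 7SK and 2.85 for Gm24907. For Gm24907, a pseudocount of 0.1 FPKM gave 19.5 and a geometric mean with that pseudocount gave 18.4. With 1 library left out at a time, the ratio ranged from 0.119 to 0.262 for H4c11 and from 2.10 to 2.60 for 7SK. For Gm24907, set against the floor of 3 reads, it ranged from 2.36 to 6.95. Size factors gave 0.191, 2.33 and 5.14 in the same gene order, and pooled reads over library totals gave 0.181, 2.29 and 4.92. The number of listed genes with separated groups was 45, and 25 of the 28 genes with a mean of at least 10 reads, where fewer genes are counted. Gm24907 falls under that minimum. A replicate block, taken as the geometric mean of the ratios within each number, gave 0.177 for H4c11, 2.33 for 7SK and, with 0.1 FPKM added, 18.4 for Gm24907. The replicate numbers are only shared names, since no source pairs them and there are 2 pairs. The deviations of same-numbered libraries had r = 0.18 across 48 genes, which are not independent replicates. Depth limits H4c11 and Gm24907 most, with 11 and 16 mimic reads in all.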
